A study of Mus musculus with 40 samples.

Results

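Kit, a receptor tyrosine kinase of blood progenitors, and 9 genes of cytokine signalling were followed through a genome-wide enhancer reporter screen in mouse cells. The 9 were the interleukin-6 receptor chains Il6ra and Il6st, the shared β chains Csf2rb and Csf2rb2, the kinase Jak2, the transcription factors Stat3, Stat5a and Stat5b, and the inhibitor Socs3. A fragment was counted for a locus when its centre lay in the RefSeq gene body or within 25 kb of it on the mm10 genome, and overlapping fragments of all libraries were merged into regions. This gave 699 distinct fragments of 354627 in the series, or 895 of 458486 when every library was counted, in 61 of 75060 regions. The rule used position only, and 7 of the 61 regions lay in more than 1 of the 10 windows. A window can also hold introns of other genes, and no target gene was measured for any region.

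The cells were HM-1 embryonic stem cells of the 129/ola strain, 1 line with a non-functional HPRT locus that the integrating reporter repairs. All 5 groups carried the same kind of cassette, a fragment of open chromatin placed before an HSP68 minimal promoter and Venus-YFP. The fragments had been cut by Tn5 from all 5 stages and mixed, so a fragment tested at 1 stage may derive from another. The stages were ES cells (ES), FLK1+ hemangioblast-like cells (HB), hemogenic endothelium 1 (HE1; KIT+, TIE2+, CD41-), hemogenic endothelium 2 (HE2; KIT+, TIE2+, CD41+) and hematopoietic progenitors (HP; KIT+, TIE2-, CD41+). KIT was thus a sorting marker of the last 3 stages, and the blast culture that precedes them held VEGF and IL-6. Each stage was sorted by YFP into a Negative, a Low, a Medium and a High gate in 2 replicates, which gave 40 libraries. A stage in 1 replicate is called a sort here, 5 values from ES to HP follow the stages in the order just given, and a fragment was positive in a sort when it was in its Low, Medium or High library. A fragment in several of these 3 gates of a sort counts once as positive, so positive and negative counts add up to less than the library fragments.

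KIT binds stem cell factor and sustains early blood progenitors. Interleukin-6 binds the chain encoded by Il6ra and signals through gp130, the product of Il6st, while the chains encoded by Csf2rb and Csf2rb2 serve receptors of the IL-3 family. These cytokine receptors act through Janus kinases such as JAK2, which phosphorylate STAT proteins, and activated STAT3 induces Socs3, whose product dampens the signal.

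Sequences of 7 regions are shown because they led the counts at their loci or lay inside the gene itself. They are the + strand of GRCm38, the assembly that mm10 names, from the centre of each region, with capitals for matches to the motifs spelled out after them.
Stat3 intron region: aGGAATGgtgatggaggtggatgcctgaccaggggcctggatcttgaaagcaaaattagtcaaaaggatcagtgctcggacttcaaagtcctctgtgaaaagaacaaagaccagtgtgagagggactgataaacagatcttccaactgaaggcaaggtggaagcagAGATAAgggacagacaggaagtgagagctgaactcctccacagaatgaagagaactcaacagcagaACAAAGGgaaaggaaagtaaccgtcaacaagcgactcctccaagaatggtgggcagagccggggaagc
Jak2 intron region: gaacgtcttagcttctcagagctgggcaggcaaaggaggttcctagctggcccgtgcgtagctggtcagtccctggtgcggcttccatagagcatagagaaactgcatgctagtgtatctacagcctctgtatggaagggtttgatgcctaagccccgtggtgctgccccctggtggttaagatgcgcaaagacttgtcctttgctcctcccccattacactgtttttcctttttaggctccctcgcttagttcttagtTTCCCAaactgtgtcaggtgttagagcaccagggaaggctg
Region between Csf2rb and Csf2rb2: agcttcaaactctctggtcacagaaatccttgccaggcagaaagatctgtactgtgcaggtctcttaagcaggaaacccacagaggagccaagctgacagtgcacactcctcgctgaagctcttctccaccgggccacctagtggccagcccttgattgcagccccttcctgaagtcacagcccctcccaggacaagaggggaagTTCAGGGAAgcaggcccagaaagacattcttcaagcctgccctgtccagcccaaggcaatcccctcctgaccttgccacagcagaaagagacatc
Il6ra intron region: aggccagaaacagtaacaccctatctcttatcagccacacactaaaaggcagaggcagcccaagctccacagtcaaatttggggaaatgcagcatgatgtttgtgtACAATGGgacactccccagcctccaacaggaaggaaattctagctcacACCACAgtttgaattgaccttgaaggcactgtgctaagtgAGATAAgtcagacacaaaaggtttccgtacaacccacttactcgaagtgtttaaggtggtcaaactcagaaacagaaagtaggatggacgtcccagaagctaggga
Il6st upstream region: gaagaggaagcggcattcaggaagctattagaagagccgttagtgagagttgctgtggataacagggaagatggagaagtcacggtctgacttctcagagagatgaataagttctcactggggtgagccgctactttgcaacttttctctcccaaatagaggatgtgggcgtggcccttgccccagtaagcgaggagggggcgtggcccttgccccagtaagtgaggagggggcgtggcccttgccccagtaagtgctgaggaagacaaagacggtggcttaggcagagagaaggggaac
Kit intron region: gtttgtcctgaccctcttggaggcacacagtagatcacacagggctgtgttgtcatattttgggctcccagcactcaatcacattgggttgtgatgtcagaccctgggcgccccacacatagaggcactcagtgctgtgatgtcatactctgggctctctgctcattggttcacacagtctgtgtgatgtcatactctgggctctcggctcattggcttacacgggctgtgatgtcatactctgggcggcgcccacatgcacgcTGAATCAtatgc
Stat5b intron region: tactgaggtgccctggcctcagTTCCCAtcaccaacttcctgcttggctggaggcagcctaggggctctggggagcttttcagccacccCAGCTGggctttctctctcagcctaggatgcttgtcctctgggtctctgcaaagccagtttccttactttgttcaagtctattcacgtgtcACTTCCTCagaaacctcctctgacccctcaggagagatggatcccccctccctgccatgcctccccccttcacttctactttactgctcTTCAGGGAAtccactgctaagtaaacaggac

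These windows were chr11:100891613-100891912 for Stat3, chr19:29253810-29254109 for Jak2 and chr15:78320868-78321167 for the region between Csf2rb and Csf2rb2. The others were chr3:89883798-89884097 for Il6ra, chr13:112439878-112440177 for Il6st, chr5:75589544-75589819 for Kit and chr11:100786408-100786707 for Stat5b. Read at the centre of each window, the annotation placed the Il6st and Csf2rb windows between genes and the others in introns of the named gene. The search covered both strands for 11 consensus motifs. STAT was searched as TTCNNNGAA, a GATA factor as AGATAA and AP-1 as TGANTCA. RUNX was searched as TGTGGT, the myeloid factor PU.1 as GAGGAAGT and a CEBP factor as TTGCNNAA. TEAD was searched as GGAATG, an E-box factor as CAGCTG and a SOX factor as ACAANGG. For the Notch partner RBPJ the letters were TGGGAA, and for an OCT factor they were ATGCAAAT. TEAD and RBPJ letters can overlap each other, and either can overlap those of STAT. The window between Csf2rb and Csf2rb2 and the Stat5b window each held 1 STAT match. The Kit window held 1 AP-1 match, and the Stat3 window and the Il6ra intron window each held 1 GATA match. A match is a description of the letters, not a bound site. A stretch of 33 bases occurred more than once in the Il6st window, and a stretch of 24 bases did so in the Kit window.

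The libraries were uneven in depth and in what they shared. They held 654 to 51146 fragments, 361181 in replicate 1 and 97305 in replicate 2. The HE1 Negative and HE1 Medium libraries of replicate 1 had 28868 fragments in common, which was 69.8% of the smaller library, against a median of 1.34% over 780 pairs of libraries. Of the 96 fragments that the HE1 Negative library held at the 10 loci, 67 were also in the HE1 Medium library. Positive and negative counts without this sort are therefore given for the loci and leading regions where 1 of them moved by over 1.5 times. This was not the only such pair, since 93 of the 780 shared over 20% of the smaller library. Pairs of different stages in replicate 2 were among them, such as ES Medium and HE1 Low at 65.5% and HB Negative and HE2 High at 49.2%. The sorts of replicate 2 are therefore not fully separate observations.

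Summed over the sorts, 663 fragments at the 10 loci were positive and 208 negative, a positive share of 76.1% against 76.8% for all fragments of the series. Without the HE1 sort of replicate 1 the share was 79.8%, against 79.4% for all fragments. Per 10000 fragments of a set, the 10 loci took 15.2 ± 8.19 positive and 17.7 ± 6.36 negative fragments (SD, n = 10 sorts). The difference, positive minus Negative, was -2.48 ± 5.22 per 10000, and it was above 0 in 3 of 10 sorts, so it was smaller than the spread between sorts. Without the HE1 sort of replicate 1 it was -2.58 ± 5.53. The replicates differed in level. The positive value was 22.1 ± 2.51 in the 5 sorts of replicate 1 and 8.35 ± 5.17 in the 5 sorts of replicate 2.

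The loci differed widely in how many fragments they gave. Per kb of window, Socs3 held 8.02 fragments, Stat3 1.93, Stat5a 1.72, Csf2rb2 0.956, Il6ra 0.735, Csf2rb 0.692, Jak2 0.485, Il6st 0.259, Kit 0.0911 and Stat5b 0.0858. The median of the 21883 protein-coding loci was 0.0954 per kb, so Kit and Stat5b lay near the middle of all loci, while 99.97% of these loci lay below Socs3. In the 5 sorts of replicate 1 the positive values of Socs3, per 10000 and per kb, lay at 0.188 to 0.259 and did not overlap those of Stat3, at 0.0372 to 0.0574. Every other pair of neighbours in this order overlapped over the same sorts. Fragment density here depends on what was cloned, integrated and recovered and on any filter the lists had passed. It is no measure of gene expression.

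**Figure D1:**
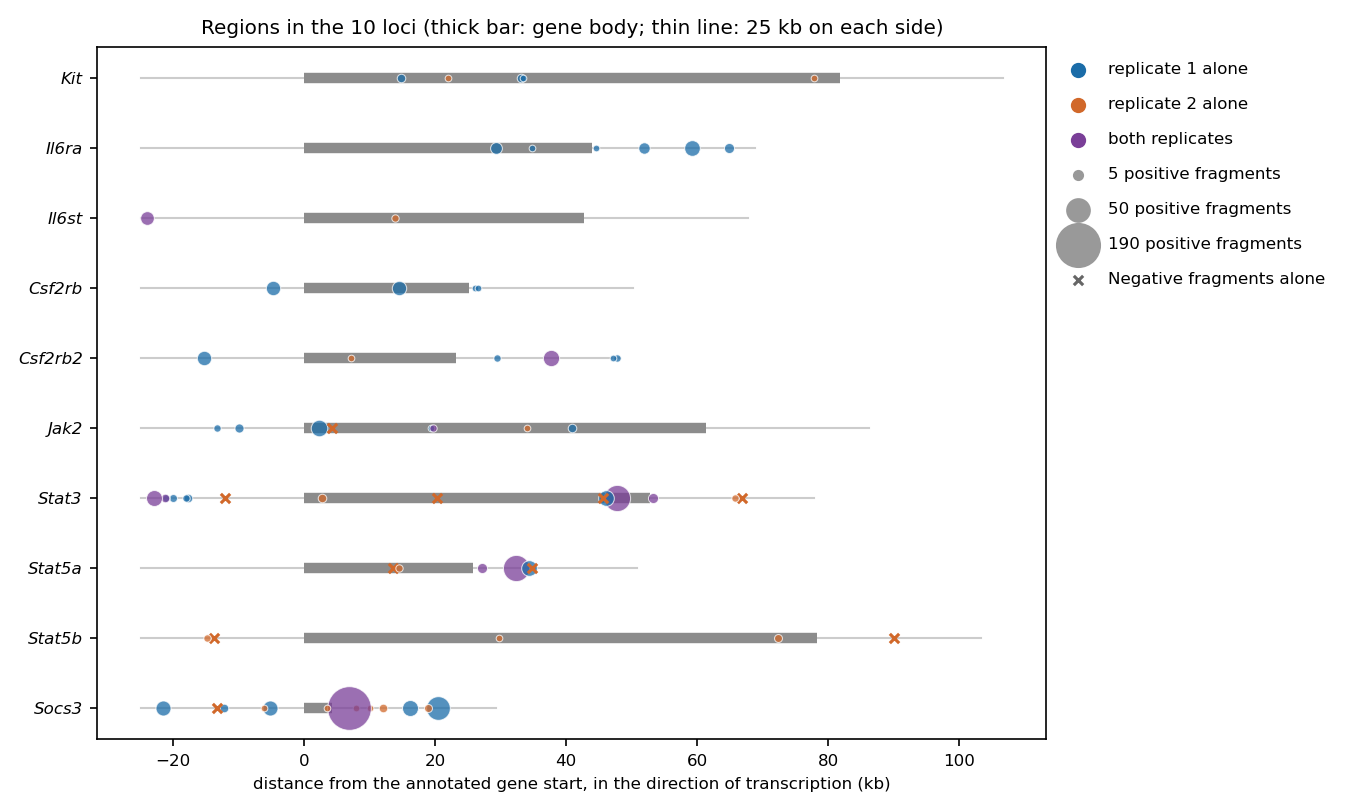
Map of the 61 regions by distance from the annotated start of each member gene (x axis, kb, in the direction of transcription), with 1 line for each locus, the gene body as a thick bar and the 25 kb flanks as a thin line. Circle area follows the number of positive fragments, up to 196 at Socs3, colour gives the replicates in which the region was found, and a cross marks a region with Negative fragments alone.

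Of the 61 regions, 54 held a positive fragment, which was 88.5% against 84.0% of all regions, and 7 held Negative fragments alone. Read at the centre of each region, the annotation placed 34 in introns, 23 between genes, 3 in UTRs and 1 in a coding exon. A region called an intron region here can therefore extend into an exon. The nearest region centre was 1986 bp from a transcription start, and the median was 13187 bp. Positive fragments were found in both replicates at 7 regions, or 13.0% of those positive, against 8.14% for all regions. These 7 were the Il6st upstream region, the region past the end of Csf2rb2, the Socs3 region and 4 regions in the Stat3 window. Regions positive at a single stage made up 24 of the 54, or 44.4% against 61.6% of all positive regions, and 9 were positive at all 5 stages. The positive regions numbered 18, 21, 38, 30 and 21 from ES to HP, and HE1 and HE2 were also the deepest sorts of replicate 1. A region with few fragments can be positive at few stages only, and 32.8% of these regions held a single library fragment against 55.0% of all regions.

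The receptors stand first in the pathway. Kit (chr5:75574987-75656722, + strand) held 12 fragments in 5 regions, 11 positive and 1 negative. Its positive fragments in replicate 1 were 0, 0, 5, 3 and 1 from ES to HP, and in replicate 2 there were 2 at HE1 and 0 at the other stages. The single Negative fragment was at HP in replicate 1. The Kit fragments were thus found in the 3 stages sorted on KIT, but 0 of 27717 positive fragments at ES in replicate 1 allows up to 1.08 per 10000, above the 0.491 seen at HE1, so an absence at ES was not detectable at this depth. The leading Kit region lay in an intron 14.8 kb from the gene start, with 4 positive fragments and 1 negative (1 and 1 without the HE1 sort of replicate 1), and a further intron region at 33.1 kb had 4 and 0. All fragments of both these regions came from replicate 1. The locus kept 6 positive and 1 negative fragment without the HE1 sort of replicate 1.

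Il6ra (chr3:89869324-89913196, - strand), the ligand-binding chain for interleukin-6, held 69 fragments, all in replicate 1. In that replicate its positive fragments per 10000 were 0.361, 0.770, 2.35, 2.78 and 1.26 from ES to HP. The matching negative values were 0.966, 0, 3.14, 1.19 and 0, so that the 2 sets overlapped. In replicate 2 it had 0 of 97305 fragments, which allows up to 0.308 per 10000, below the 1.91 of replicate 1. Of the 14082 loci with at least 20 fragments, 474, or 3.37%, had no fragment in replicate 2. Most of its positive fragments lay past the gene's end. The leading region, 59.2 kb from the start and in an intron of the neighbouring gene She, had 22 positive and 2 negative fragments, and its positive counts in replicate 1 were 0, 0, 12, 9 and 1 from ES to HP. The intron region of Il6ra itself, whose sequence is shown, had 11 positive and 4 negative fragments, also from HE1 onwards. Its positive values from HE1 to HP, at 0.491, 0.438 and 0.756 per 10000, all lay below what a count of 0 allows at ES and HB. A further region, 51.9 kb from the start and past the gene's end, had 10 positive and 6 negative fragments and was positive at all 5 stages, with counts of 1, 1, 3, 4 and 1 from ES to HP. For the She intron region the limit for a count of 0 was 1.08 per 10000 at ES and 0.770 at HB, and the values from HE1 on were 1.18, 1.32 and 0.252, so only the values at HE1 and HE2 lay above both limits. Without the HE1 sort of replicate 1 the locus kept 28 positive and 2 negative fragments, the She intron region 10 and 0, the Il6ra intron region 6 and 0 and the region at 51.9 kb 7 and 2.

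Il6st (chr13:112464070-112506860, + strand), which encodes the signal-transducing chain gp130, held 24 fragments in 2 regions. The region 24.0 kb upstream of the gene had 16 positive and 6 negative fragments, with 12 of the positive ones in replicate 1 and 4 in replicate 2. Its positive counts in replicate 1 were 1, 0, 4, 6 and 1 from ES to HP, and in replicate 2 they were 1, 0, 2, 0 and 1. A single 410-bp fragment of this region was recovered in 7 libraries, 3 of replicate 1 and 4 of replicate 2, from both positive and Negative gates. The 4 positive counts of replicate 2 were this fragment at ES, HE1 and HP and a 408-bp fragment with the same start at HE1. They are therefore not separate observations. The other region, in an intron of Il6st, had 2 positive fragments, both in replicate 2.

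Csf2rb (chr15:78325800-78351001, + strand), the β chain common to the IL-3, GM-CSF and IL-5 receptors, held 52 fragments, all in replicate 1. Its positive fragments per 10000 there were 1.08, 1.28, 1.47, 1.90 and 0.504 from ES to HP, and its negative ones were 2.90, 2.37, 1.93, 0 and 0. The 2 sets overlapped. Like Il6ra, Csf2rb was thus among the 3.37% of loci without a fragment in replicate 2. Csf2rb2 (chr15:78282507-78305721, - strand), the neighbouring paralogue for the mouse IL-3 receptor, held 70 fragments, 68 of them in replicate 1. Its positive values in that replicate were 0.722, 0.770, 2.45, 1.61 and 1.26 in the order of the stages, and its negative values were 0.966, 1.19, 2.90, 1.19 and 1.18. The region between the genes, 4.8 kb upstream of Csf2rb, belongs to both windows and had 18 positive and 5 negative fragments, the positive ones at all 5 stages of replicate 1 and the negative ones at ES, HB and HE1. An intron region of Csf2rb at 14.4 kb had 18 and 6, found at the same stages. The region 37.7 kb from the start of Csf2rb2 lay past its end. Its positive counts in replicate 1 were 0, 0, 16, 4 and 3 from ES to HP, with 1 fragment at HP in replicate 2. A count of 0 allows up to 1.08 per 10000 at ES and 0.770 at HB. Only the 1.57 at HE1 lay above both limits, with 0.585 at HE2 and 0.756 at HP. The 8 negative fragments of this region were all in the HE1 Negative library that shared most of its fragments with HE1 Medium. Without that sort the region had 8 positive and 0 negative fragments. Also without it, Csf2rb had 23 and 5, Csf2rb2 23 and 4, the region between the genes 11 and 2 and the Csf2rb intron region 12 and 3.

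Jak2 (chr19:29251803-29313095, + strand), which encodes a Janus kinase of cytokine signalling, held 54 fragments, 50 in replicate 1 and 4 in replicate 2. Its positive values per 10000 in replicate 1 were 2.17, 1.03, 1.18, 1.75 and 1.26 from ES to HP, and the highest was at ES. An intron region 2.2 kb from the start gave 25 of its 40 positive fragments and 3 of its 12 negative ones. The positive counts of this region in replicate 1 were 4, 4, 5, 7 and 5 from ES to HP, or 0.491 per 10000 at HE1, the deepest sort, to 1.44 at ES. In replicate 2 it had 0. The locus had 28 positive and 7 negative fragments without the HE1 sort of replicate 1, and this region 20 and 1.

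**Figure D2:**
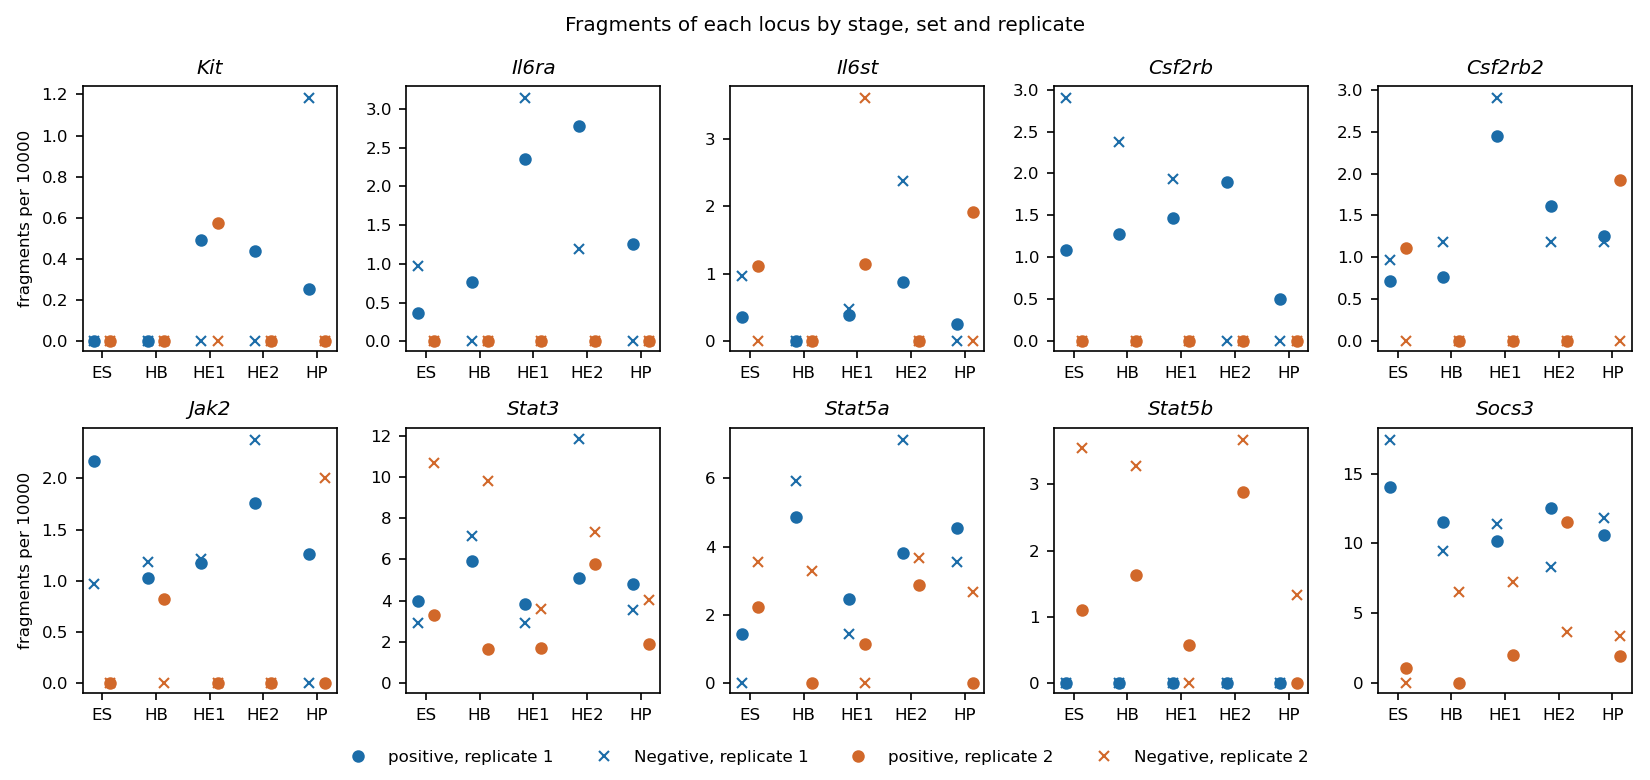
Fragments per 10000 fragments of a set (y axis, own scale for each locus) at the 5 stages (x axis) for the 10 loci. Filled circles are positive fragments and crosses Negative ones, blue for replicate 1 and orange for replicate 2, 1 library set each with no error bar. Il6ra and Csf2rb sit at 0 in every sort of replicate 2, Stat5b at 0 in every sort of replicate 1, and circles and crosses overlap at every locus.

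Stat3 (chr11:100886806-100939594, - strand), the transcription factor downstream of gp130, had fragments of both sets in all 10 sorts. Its 198 fragments comprised 141 positive and 49 negative ones. In replicate 1 its positive fragments per 10000 were 3.97, 5.91, 3.83, 5.12 and 4.79 from ES to HP, and its negative ones were 2.90, 7.12, 2.90, 11.9 and 3.55. In replicate 2 the positive values were 3.33, 1.64, 1.72, 5.76 and 1.92 and the negative values 10.7, 9.82, 3.61, 7.33 and 4.01, so that Negative was higher in each of the 5 sorts of that replicate. Those 5 negative values rest on 3, 3, 1, 2 and 6 fragments. The same 83-bp fragment was among them in all 5 sorts and was the sole fragment at HE1. It was also in 7 positive-gate libraries of replicate 2. The 5 sorts are therefore not separate observations of a Negative excess. In replicate 1 positive was higher in 3 of 5 sorts.

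The leading Stat3 region lay in an intron 47.8 kb from the start, 5.0 kb before the gene's end, and had 68 positive and 19 negative fragments. Only 350 regions of the series had more fragments. At ES in replicate 1 it had 0 of 27717 positive fragments, which allows up to 1.08 per 10000, and 0 Negative fragments. The positive values of the 4 later stages of that replicate, per 10000, were 2.82, 1.96, 3.22 and 3.53, all above that limit. Replicate 2 gave 1 positive fragment, at ES, and 2 negative ones, so the pattern across stages has no replicate check. A second region inside Stat3, with its centre in an intron 46.0 kb from the start, had positive fragments at ES too. Its counts were 4, 6, 5, 4 and 3 from ES to HP in replicate 1. A region 23.0 kb upstream of Stat3, in an intron of Cavin1, had 23 positive and 11 negative fragments, and without the HE1 sort of replicate 1 it had 9 and 5.

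Stat5a and Stat5b encode the 2 STAT5 proteins, which act downstream of the IL-3 family of receptors and of KIT, and they lie beside Stat3. Stat5a spans chr11:100859351-100885169 on the + strand and Stat5b spans chr11:100780731-100859004 on the - strand. The Stat5a window held 130 fragments, and 90 of its 99 positive ones were in the 2 regions inside Stat3 just described, which lie past its own end. Its remaining positive fragments were in a region between Stat5a and Stat3, 1.3 kb past the end of Stat5a, with 3 in replicate 1 and 4 in replicate 2, and in a Stat5a intron. The 4 fragments of replicate 2 were all at HE1 and their ends lay within 2 bp of each other, so they count as 1 where fragments with both ends within 5 bp are collapsed. The region between the genes had 0 negative fragments. Stat5b held 11 fragments, 6 positive and 5 negative, all in replicate 2. It had 0 of 361181 fragments in replicate 1, which allows up to 0.0831 per 10000, against 1.13 per 10000 in replicate 2. Such absences were common, since only 31765 of the 75060 regions of the series had a fragment in replicate 1. Of the 61 regions of the 10 loci, 22 had fragments of replicate 2 alone. The leading region of Stat5b, the intron region 72.4 kb from the start whose sequence is shown, had 3 positive fragments. They were 1 at HB and 2 at HE1, and their ends lay within 1 bp of each other.

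Socs3 (chr11:117966079-117970336, - strand), the feedback inhibitor, held 435 fragments, 410 in replicate 1 and 25 in replicate 2. In replicate 1 its positive fragments per 10000 were 14.1, 11.6, 10.2, 12.6 and 10.6 from ES to HP. The negative values were 17.4, 9.49, 11.4, 8.30 and 11.8, and the 2 sets overlapped. In replicate 2 the positive values were 1.11, 0, 2.01, 11.5 and 1.92, and the value at HE2 rests on 4 fragments. The locus held 13 regions, 12 of them positive. One of them, 2.5 kb past the end of Socs3, had 196 positive and 52 negative fragments, and only 13 regions of the series had more fragments. Its positive counts in replicate 1 were 27, 33, 61, 44 and 29 from ES to HP, or 5.98 to 9.74 per 10000. Replicate 2 gave 2 positive fragments, at HE1 and HE2, and 4 negative ones. Without the HE1 sort of replicate 1 the region had 135 positive and 27 negative fragments, and the locus 225 and 53. It was 923 bp wide and was covered by 202 distinct fragments, and over all libraries it was found 48 times in Low, 86 times in Medium, 65 times in High and 52 times in Negative gates.

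Further Socs3 regions were found at 16.1 kb and 20.4 kb from the start, past the gene, and at 5.2 kb upstream. They had 23, 55 and 20 positive fragments and 7, 20 and 8 negative ones. A region 21.6 kb upstream, in an intron of Pgs1, had 20 and 5, and its positive counts in replicate 1 were 0, 0, 8, 10 and 2 from ES to HP. A count of 0 allows up to 1.08 per 10000 at ES and 0.770 at HB, and only the 1.46 at HE2 lay above both. Without the HE1 sort of replicate 1 the regions at 16.1 kb, 20.4 kb and 5.2 kb had 17 and 3, 40 and 9, and 10 and 7, and that in the Pgs1 intron had 12 and 1. The positive share at 5.2 kb upstream was then 58.8%. None of these 4 had a positive fragment in replicate 2. Replicate 2 likewise gave no fragment in 42.4% of the 5742 regions of the series with at least 20 fragments, and its median share of their fragments was 2.27%.

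**Figure D3:**
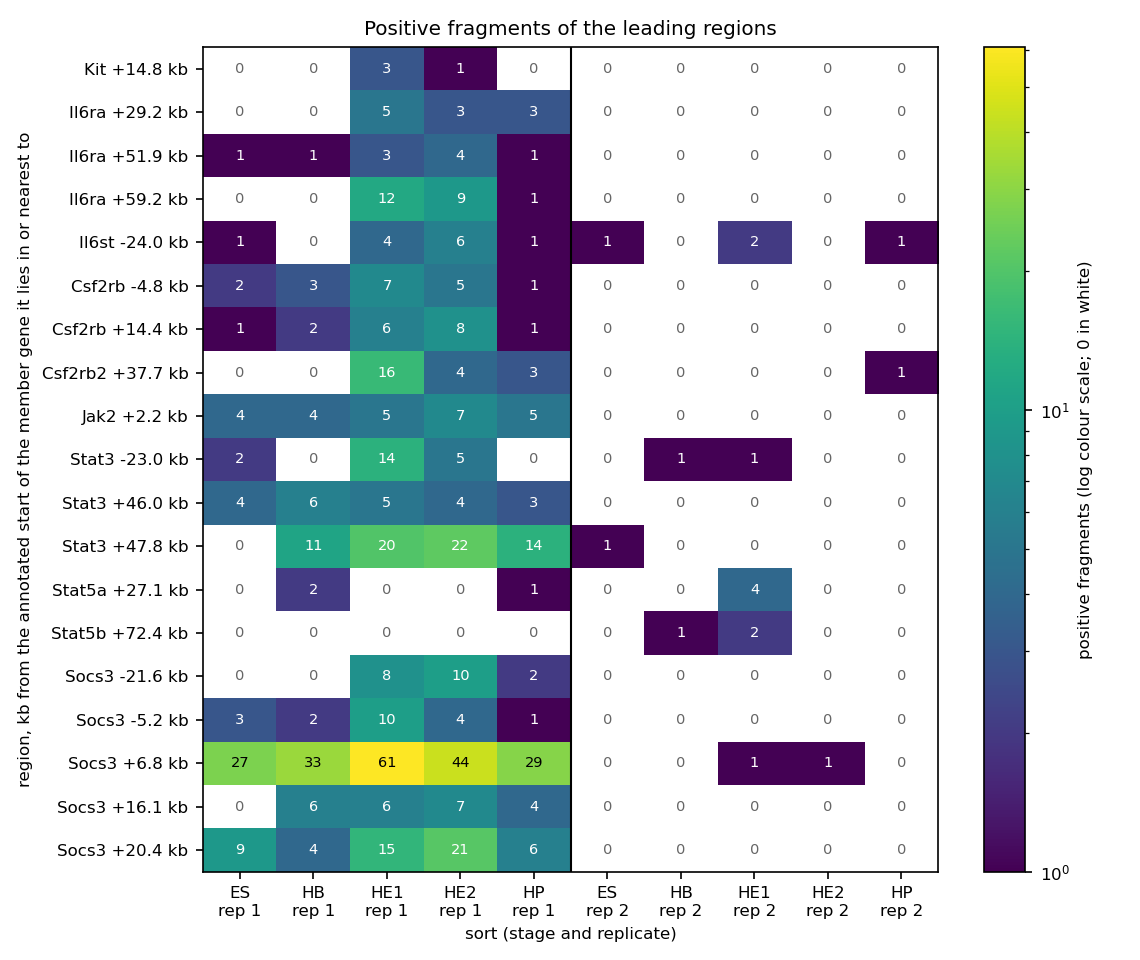
Positive fragments of the 19 leading regions (rows, named by member gene and distance from its start) in each of the 10 sorts (columns), as a count printed in each cell over a log colour scale with 0 in white. Of the 585 positive fragments, 568 were in replicate 1 and 17 in replicate 2, and 9 regions had no positive fragment at ES in replicate 1 against 2 at HE1. The HE1 sort of that replicate held 101943 positive fragments and the ES sort 27717, so these counts are not on 1 scale.

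Some fragments came back in several libraries. Among distinct fragments at the 10 loci, 18.0% of 656 in replicate 1 and 22.2% of 45 in replicate 2 were in more than 1 library, against 19.7% and 13.0% of all fragments. An 83-bp fragment in a Stat3 intron, 2.7 kb from the gene start, was in 12 libraries of replicate 2, 7 of them positive gates and 5 Negative ones, and in 0 of replicate 1. A 296-bp fragment 12.0 kb from the start of Socs3 was in 9 libraries of replicate 2, 5 positive and 4 Negative. A 178-bp fragment in a Stat5a intron, which also lies in the Stat3 and Stat5b windows, was in 5 libraries of replicate 2, 2 positive and 3 Negative. The 3 fragments were thus recovered from YFP-positive and from YFP-negative cells at several stages. The same integrated fragment in cells of different gates and different integrations of 1 fragment cannot be told apart in these files.

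The split of fragments between the YFP gates was close to that of the series in replicate 1. In replicate 1, 22.4% were in Low, 43.0% in Medium and 34.6% in High, against 22.7%, 41.9% and 35.4% of all positive-gate fragments. In replicate 2 the 48 fragments split into 54.2%, 14.6% and 31.3%, against 61.4%, 18.5% and 20.1%.

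Whether a locus was represented differently among positive and Negative fragments was tested with limma over the 10 sorts, for all 14082 loci with at least 20 fragments. None was called after Benjamini-Hochberg adjustment, a background of 0.00%, and 536 loci had an unadjusted p under 0.05, none of them among the 8 members tested. Kit and Stat5b had fewer than 20 fragments. In a fit of all loci with at least 5 fragments, Kit was at 0.10 (SE 0.15) and Stat5b at -0.26 (0.37) on the log2 scale, each with a limma adjusted p of 1.00. On the log2 scale of fragments per 10000 plus 1, Stat3 was at -0.56 (SE 0.45), Stat5a at -0.26 (0.48) and Socs3 at -0.22 (0.42). The receptors and Jak2 lay between 0.04 and 0.23, with Csf2rb2 at 0.23 (0.37), Il6ra at 0.20 (0.30), Jak2 at 0.07 (0.36), Csf2rb at 0.04 (0.31) and Il6st at 0.04 (0.32). The adjusted p was 1.00 for each, and every SE but that of Stat3 was larger than its value. The median of all loci was 0.12. Leaving out single sorts or a replicate moved Stat3 between -1.06 and -0.06 without a change of sign. All tested members except Stat3 and Il6ra took the other sign in at least 1 such fit, and Il6ra was at 0 without replicate 1. With 0.25 per 10000 added in place of 1, the receptors and Jak2 lay between 0.19 and 0.50, with SEs of 0.60 to 0.72. Stat3, Stat5a and Socs3 were then at -0.65, -0.32 and -0.29. A count test that treats fragments as independent, the Cochran-Mantel-Haenszel test with sorts as strata, called 14 of the 14082 loci, or 0.0994%, and 482 at an unadjusted p under 0.05, none of either among the members.

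**Figure D4:**
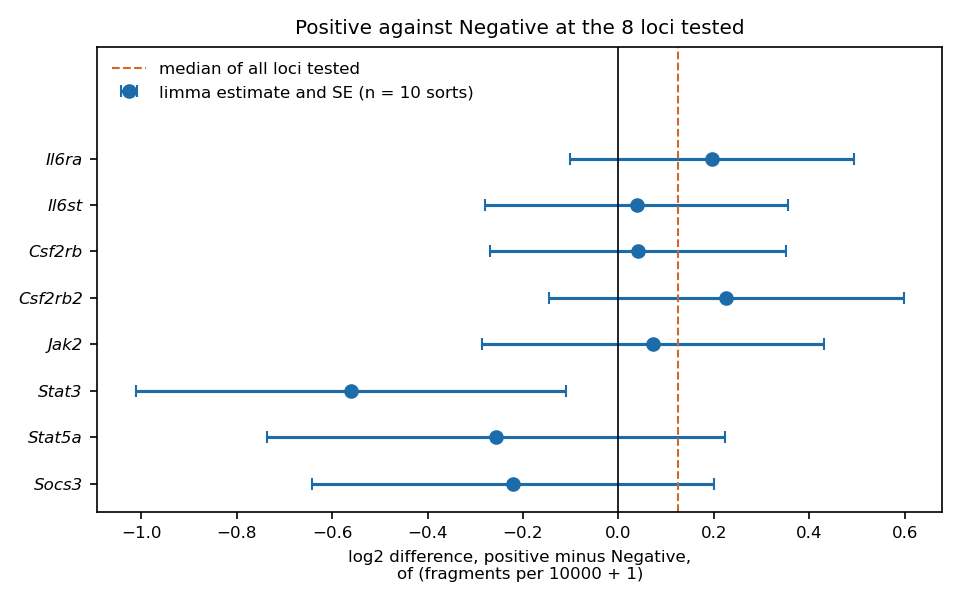
Fitted log2 difference between positive and Negative fragments per 10000 plus 1 (x axis) for the 8 loci with at least 20 fragments, with the SE over 10 sorts as bars. The dashed line is the median over all loci tested, 0.12, and 7 of the 8 bars cross 0, that of Stat3 at -0.56 lying below it.

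Across stages, the positive values of the same loci were compared with a moderated F test in limma. It called 0 of 14082 loci, a background of 0.00%, with 27 at an unadjusted p under 0.05. No member was among these, the lowest unadjusted p being 0.358 for Socs3. The difference between positive and Negative was also not called as differing between stages at any locus, with 18 at an unadjusted p under 0.05 and 0.509 as the lowest among the members, again for Socs3. With 2 replicates that differ in level, such fits leave the stage patterns of single regions given above as descriptions. They held no replicate term, so that difference in level entered the residual spread, and the absence of calls says little. With a replicate block, more loci had an unadjusted p under 0.05 across stages in limma, as given below.

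At the level of regions, 14 of the 61 had at least 20 fragments and entered the Cochran-Mantel-Haenszel test. It called 12 of 5742 regions, 0.209%, and 0 of these 14, each with an adjusted p of 1. The limma fit over sorts called 0 of the 5742, or 0.00%, with 92 at an unadjusted p under 0.05 against 202 by the count test. The number called by the count test was 6 without the HE1 sort of replicate 2, 20 without the HP sort of replicate 2 and 5 without replicate 2. Positive fragments observed over those expected ran from 0.885 for the Cavin1 intron region upstream of Stat3 to 1.17 for the She intron region past Il6ra. It was 1.02 for the Socs3 region, 0.981 for the leading Stat3 intron region, 1.10 for the second region inside Stat3 and 1.12 for the Jak2 intron region. At 7 regions it was above 1.

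A list of 40 further genes of these pathways, from ligands and receptors to STAT targets, was read from the same fits. Of these, 26 had enough fragments, 0 were called in either direction or across stages by limma, and 0 had an unadjusted p under 0.05. Their median log2 difference was 0.10 against 0.12 for all loci, with 15 above 0 and 11 below. The highest were Mcl1, a survival factor of the BCL2 family, at 0.87 (SE 0.48), Pias1, an inhibitor of activated STAT, at 0.59 (0.33), and Lifr, the LIF receptor, at 0.58 (0.38). The lowest were Tyk2, another Janus kinase, at -0.44 (0.41), Myc at -0.35 (0.48) and Ccnd1, which encodes cyclin D1, at -0.25 (0.48).

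The same 11 motifs were counted in windows of 300 bp at the centre of each of the 61 regions. STAT letters were in 6 windows, or 9.84% (Wilson 95% interval 4.59% to 19.8%), against 8.99% of 75043 windows of all regions. In windows of 200 bp the order turned, with 3.28% against 5.97%. GATA letters were in 14.8% against 16.3%, RUNX letters in 23.0% against 23.3% and AP-1 letters in 14.8% against 13.1%. TEAD letters were in 13.1% against 18.7% and CEBP letters in 6.56% against 11.2%. For each of the 11 motifs the interval included the share of all regions.

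**Figure D5:**
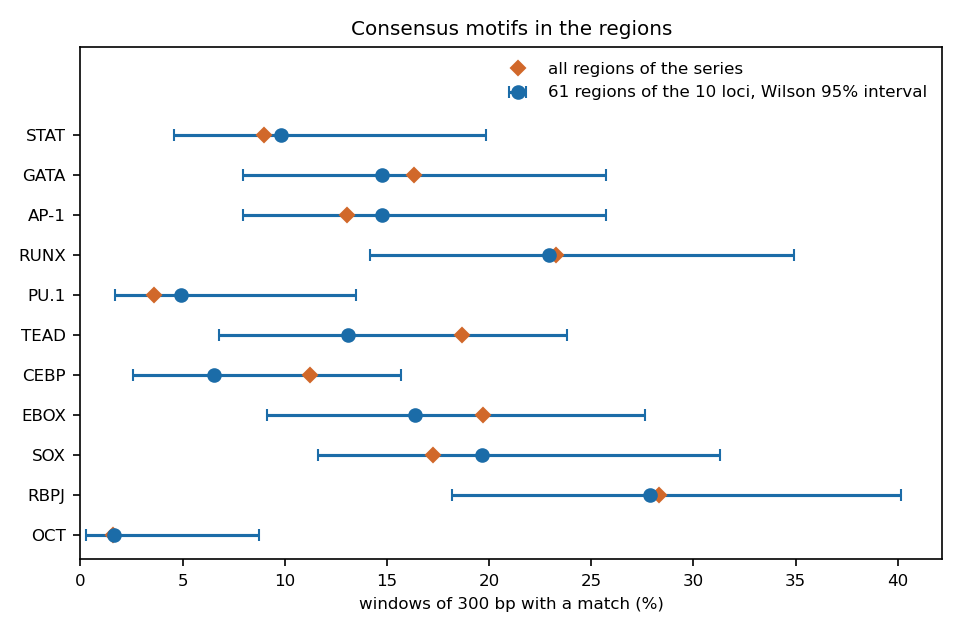
Share of 300-bp windows with a match to each of 11 consensus motifs (x axis, %), as circles with Wilson 95% intervals for the 61 regions and as diamonds for all regions of the series. Every diamond lies inside the interval of its motif, from 1.58% for OCT to 28.3% for RBPJ.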

How the data were processed

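The authors deposited, for each of 40 libraries, a list of fragment coordinates on mm10 with no read counts or scores, so a fragment counts once per library. Per the labels and methods, reads were trimmed with Trim Galore, aligned with Bowtie2 and handled with SAMtools, bedtools and HOMER (versions not given in the sources used here). The sources do not say which filters of the methods these lists had passed, among them the filter for open chromatin at the same stage. Depth was 654 to 51146 fragments per library, and its limits cover counting error only.

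Groups, gates and replicate numbers came from the labels. The 10 member genes, the 40-gene list, the regions named and the tests were chosen with earlier results of these data known. Gene windows came from RefSeq on GRCm38. Loci with at least 20 fragments were fitted with limma 3.58.1 in R 4.3.3 (trend, stage and class as terms) on log2 of fragments per 10000 plus 1. Regions were tested with the Cochran-Mantel-Haenszel test over 10 sorts (scipy 1.17.1). All p-values were two-sided, with Benjamini-Hochberg adjustment over every locus or region tested. The limit given for a count of 0 is 3 fragments. Regions named were the leading one of each locus, those with at least 10 positive fragments, and those positive in both replicates and at 3 or more stages. Of the 40-gene list the 3 highest and 3 lowest were named. The second Kit region, other thin regions and the recurrent fragments were chosen after their values were seen. Same-numbered samples deviated together from their stage means in all 20 pairs (r 0.327 to 0.483). With 2 replicates, each pair of stages gives the same value in both, so these are not 20 separate checks. The main limma fits held no replicate term and did not pair the samples. A fit with a replicate block is given as an alternative. Nothing says that the replicates came from separate differentiations, so limma p-values measure the spread between these sorts, the replicate difference in level included. Those of the Cochran-Mantel-Haenszel test measure counting error with fragments taken as independent. Scripts were tested on simulated data. The sequence of 1 region is not reported here.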

Additional observations from a re-analysis of the deposited data

How the results depend on the processing

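The count of loci called between positive and Negative was 0 under every limma setting tried and 14 by the Cochran-Mantel-Haenszel test on fragments. With a replicate block the count stayed at 0, with 1339 loci at an unadjusted p under 0.05, and 552 across stages, and the paired fit changed no call. In place of 12 regions called by the main test, 30 were called with no replicate block, 0 with near-identical fragments collapsed and 0 with limma, and leaving out single sorts or a replicate gave 5 to 20. Member regions with a positive fragment numbered 22 within gene bodies and 87 with 50 kb flanks, against 54, and those positive in both replicates 1 and 11, against 7. For the member loci, 139 of 154 alternatives kept the direction and 15 reversed it. Among these, Il6st was at -0.21 with 50 kb flanks, Socs3 at 0.0617 with fragments of both sets left out and Csf2rb at -0.0316 within the gene body. Leaving out sorts or a replicate gave -0.23 to 0.30 for Il6st, -0.15 to 0.29 for Jak2, -0.49 to 0.0786 for Socs3, -0.13 to 0.15 for Csf2rb, -0.0735 to 0.52 for Csf2rb2 and -0.73 to 0.21 for Stat5a. For the tested member regions, 184 of 201 alternatives kept the direction and 17 reversed it. With replicates pooled, observed over expected was 1.005 for the leading Stat3 intron region, 0.990 past Csf2rb2 and 0.999 between Csf2rb and Csf2rb2. Leaving out sorts or a replicate gave 0.782 to 1.02 for the leading Stat3 intron region, 0.765 to 1.16 for the Cavin1 intron region and 0.653 to 1.03 for the leading Socs3 region. For the other Socs3 regions it gave 0.898 to 1.004 at 16.1 kb, 0.741 to 1.10 at 5.2 kb upstream and 0.982 to 1.05 in the Pgs1 intron. It gave 0.872 to 1.05 for the Il6st region, 0.969 to 1.03 between Csf2rb and Csf2rb2, 0.842 to 1.01 in the Csf2rb intron and 0.995 to 3.87 past Csf2rb2, the last value without replicate 1 and resting on 1 fragment. The cause was not tested. The member difference of -2.48 per 10000 ranged from -3.45 to -0.467. Of the 11 motifs, 5 were above the share of all regions, and 4, 7 and 4 were so under the alternatives. Replicate 2 held 78 member fragments, or 8.02 per 10000 against 22.6 in replicate 1, so it was lower after scaling for depth too; the cause was not tested. The STAT share fell to 3.28% against 5.97% of all windows at 200 bp.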
